A study of Mus musculus with 18 samples.

Results

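The TNF receptor 1 death complex genes are 10 genes that encode the adaptors (Tradd, Traf2, Fadd), the kinases and pseudokinase (Ripk1, Ripk3, Mlkl), caspase-8 and its inhibitory homologue (Casp8, Cflar), and the ubiquitin ligases (Birc2, Birc3) that assemble below TNF receptor 1. They were found by the Entrez Gene ID of each mouse symbol among 27179 genes counted in CD69+ thymocytes that were sorted as MHC I low or MHC I high, and all 10 were present in the files. Of these, 9 passed the filter on low counts and were among the 12798 genes tested, and Mlkl did not pass.

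RNA was sequenced from 18 samples, 1 of each fraction per mouse, and the mice were 3 WT, 3 Sharpin cpdm and 3 Hoil ΔCd4 animals. The cells had been purified from thymus by flow cytometry, and cells that were dead or that carried CD25, CD44 or markers of other lineages had been gated out. CD69 marks thymocytes that have recently received a T-cell receptor signal, and MHC I rises as they mature, so the low and high fractions are an earlier and a later stage after positive selection. The experiment asked how loss of either component of the linear ubiquitin chain assembly complex (LUBAC) alters expression at both stages. WT mice were C57BL/6. Hoil ΔCd4 mice carry loxP sites around the promoter and first exons of Rbck1, which encodes HOIL-1, and a Cd4-driven Cre that deletes it in the T lineage from the CD4+CD8+ stage onward. Sharpin cpdm mice carry a spontaneous mutation of Sharpin in every cell, and came from a C57BL/Ka stock with limited backcrossing to C57BL/6, so the mutation and strain differences cannot be told apart. The age of the sequenced mice was not given in the labels or with the sequencing methods.

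When TNF binds its receptor, TRADD, TRAF2, the cellular inhibitors of apoptosis cIAP1 (Birc2) and cIAP2 (Birc3) and RIPK1 gather at the membrane, and LUBAC adds linear ubiquitin chains that favour NF-κB signalling. When this complex is destabilised, RIPK1 can join FADD and caspase-8 in the cytosol and cause apoptosis, which cFLIP (Cflar) restrains. Where caspase-8 is not active, RIPK1 can engage RIPK3, which phosphorylates MLKL and causes necroptosis. These are relations between proteins, whereas the values below are transcript levels.

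Library totals ran from 10577966 to 16266128 counts (median 13979793). Rbck1, the gene deleted in Hoil ΔCd4 mice, averaged 222.5 and 266 counts per 1000000 (CPM) in WT MHC I low and high cells, and 0.544 and 5.72 CPM in the Hoil ΔCd4 samples. Sharpin transcripts remained at 71.5 and 73.8 CPM in Sharpin cpdm cells against 91.3 and 89.7 CPM in WT cells. By Xist, all 3 WT mice were female and each mutant group held 1 female and 2 males. All 28 differences called among the death complex genes kept their call with Xist as a covariate. The 7, 5 and 6 calls between fractions, and the 1 difference of such changes, compare samples of the same mice. For those the check says little. In comparisons with WT, no WT mouse was male, so the covariate separates sex from genotype only through the mutant mice. Summed markers of B cells (3.71 to 6.76 CPM), myeloid and dendritic cells (7.36 to 15.5 CPM), thymic epithelium (6.11 to 11.9 CPM) and erythroid cells (0.345 to 1.54 CPM) were low in every sample, and S100a8, S100a9 and Ncr1 were at 0 in all 18. The 4 matched NK and γδ T-cell markers, mostly Trdc, summed to between 12.3 and 16.4 CPM in the low and between 27.2 and 42.7 CPM in the high fractions. In high cells the sum was 32.3 to 42.7 CPM in Hoil ΔCd4, 27.2 to 32.5 CPM in WT and 29.0 to 31.3 CPM in Sharpin cpdm samples. Between Hoil ΔCd4 and WT high cells, Trdc was higher (0.38 on the log2 scale, limma adjusted p = 0.0394) and Eomes lower (-1.14, adjusted p = 0.0392). The part of these markers in differences between fractions or genotypes was not tested. Cd3e, which marks T cells, lay between 378 and 544 CPM. In such bulk samples, fewer cells of a type and less RNA per cell cannot be told apart. The limma p-values rest on a spread that is pooled over the groups and moderated across genes. Between genotypes this concerns the spread between mice, and between fractions the samples of a mouse are paired.

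Promoter windows of 5 genes are shown because the genes they belong to carry the main patterns: Birc3 and its neighbour and paralogue Birc2, Ripk1 and Ripk3, which moved in opposite directions between fractions, and Cflar. Each runs 5′ to 3′ from 250 bases before to 50 bases after a start site in RefSeq (GRCm38.p6), and capitals mark matches to 2 motifs, the interferon-stimulated response element core (GAAANNGAAA) and the gamma-activated site core (TTCNNNGAA), on either strand.
Birc3, chr9:7873121-7873420, - strand: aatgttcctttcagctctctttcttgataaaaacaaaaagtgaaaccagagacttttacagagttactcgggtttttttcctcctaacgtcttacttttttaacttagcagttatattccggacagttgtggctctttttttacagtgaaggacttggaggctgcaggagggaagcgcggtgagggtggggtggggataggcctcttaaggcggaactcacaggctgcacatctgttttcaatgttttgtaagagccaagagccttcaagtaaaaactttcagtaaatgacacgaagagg
Birc2, first of 2 start sites, chr9:7837008-7837307, - strand: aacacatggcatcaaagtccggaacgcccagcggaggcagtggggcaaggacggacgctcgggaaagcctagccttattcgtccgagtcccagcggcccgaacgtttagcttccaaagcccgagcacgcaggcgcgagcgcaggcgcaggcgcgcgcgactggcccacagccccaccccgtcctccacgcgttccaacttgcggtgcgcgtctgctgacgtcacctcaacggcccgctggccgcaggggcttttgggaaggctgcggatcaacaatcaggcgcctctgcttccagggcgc
Ripk1, second of 2 start sites, chr13:34002624-34002923, + strand: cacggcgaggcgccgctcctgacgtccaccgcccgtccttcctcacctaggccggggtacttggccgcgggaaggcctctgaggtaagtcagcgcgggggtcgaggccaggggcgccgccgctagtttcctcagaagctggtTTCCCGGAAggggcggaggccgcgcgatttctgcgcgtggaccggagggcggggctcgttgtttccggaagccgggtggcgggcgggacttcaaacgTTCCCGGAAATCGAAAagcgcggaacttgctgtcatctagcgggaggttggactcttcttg
Ripk3, chr14:55788808-55789107, - strand: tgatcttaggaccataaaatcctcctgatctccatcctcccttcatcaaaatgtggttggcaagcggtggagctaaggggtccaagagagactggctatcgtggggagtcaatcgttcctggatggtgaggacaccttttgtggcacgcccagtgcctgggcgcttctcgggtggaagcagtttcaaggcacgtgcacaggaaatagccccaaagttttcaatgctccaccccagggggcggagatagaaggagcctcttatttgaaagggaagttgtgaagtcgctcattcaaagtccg
Cflar, chr1:58711241-58711540, + strand: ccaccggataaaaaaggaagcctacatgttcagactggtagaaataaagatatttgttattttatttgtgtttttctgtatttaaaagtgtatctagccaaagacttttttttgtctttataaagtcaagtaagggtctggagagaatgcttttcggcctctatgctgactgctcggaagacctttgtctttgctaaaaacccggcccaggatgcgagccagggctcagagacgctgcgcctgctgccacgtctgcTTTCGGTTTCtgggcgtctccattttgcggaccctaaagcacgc
Windows were given for 9 of the 10 genes, 11 windows in all, and Tradd had none. The interferon-stimulated core was in 2 of the 11, that of the second Ripk1 start site and that of Cflar. It was in 3.44% of 32851 promoter windows of the same length. The gamma-activated core matched at 2 places in the shown Ripk1 window, the latter of which overlaps its interferon-stimulated match, and was in 8.3% of all windows. The windows of the first Ripk1 start site, the second Birc2 start site and Casp8 are not shown and held no match. No window of the 11 held the κB consensus, searched on both strands, which was in 8.46% of all windows. A match is a run of letters and not a measured site, and its absence concerns only these 300 bases.

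Corrected for the counted gene length, the mean level over the 18 samples was highest for Casp8 at 49.2 CPM per kb. Birc2 followed at 41.9, Ripk3 at 37.6 and Birc3 at 32.3 CPM per kb. Traf2 at 25.8, Cflar at 25.6 and Tradd at 24.0 CPM per kb lay within their spread over samples (coefficients of variation 5.45%, 8.26% and 6.46%). Ripk1 stood at 11.7 and Fadd at 4.32 CPM per kb, and Mlkl at 0.11 CPM per kb. Casp8 was thus above 86.7% of tested genes per length, and Mlkl above 1.59%. Uncorrected levels are in CPM from here on.

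**Figure D1:**
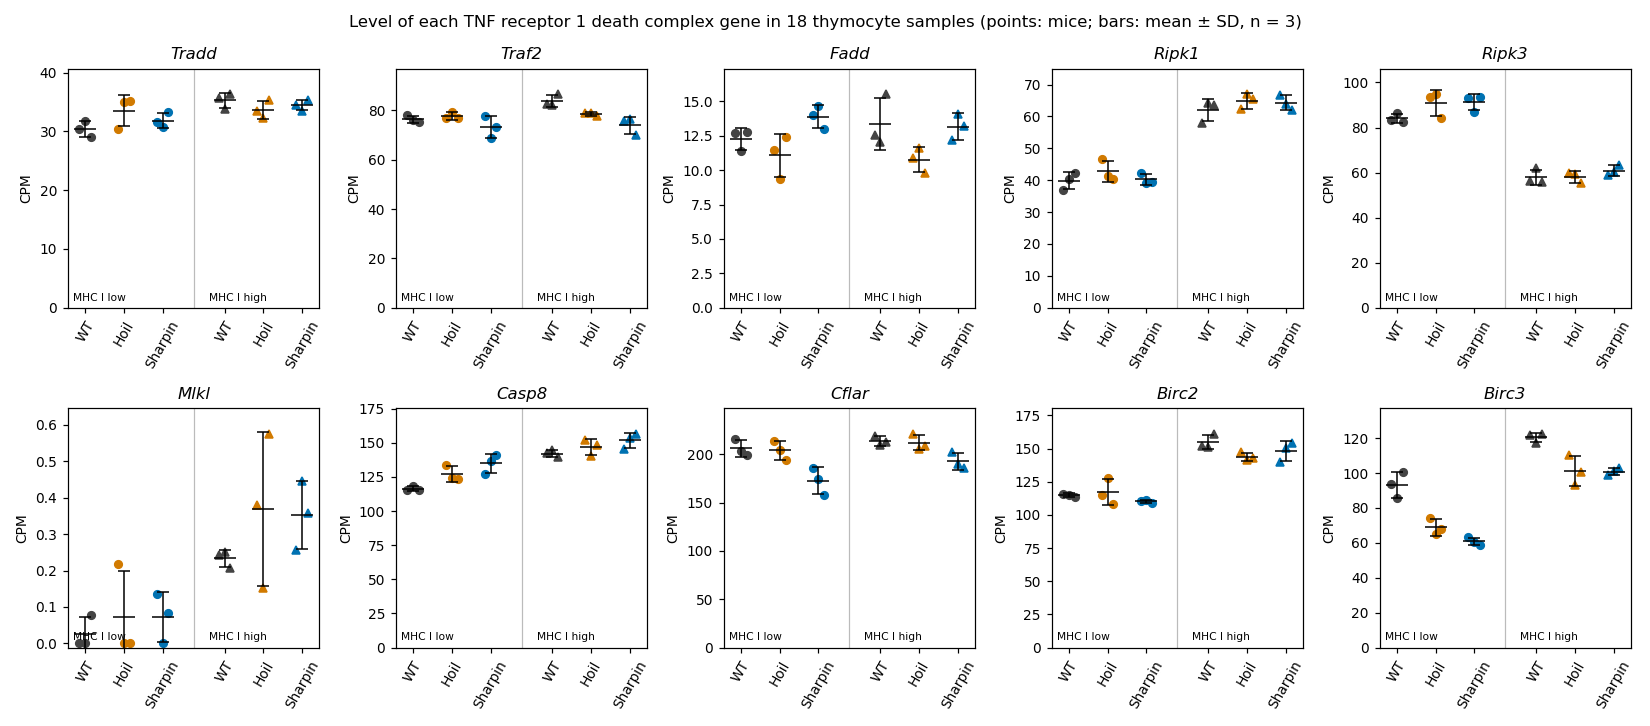
Level in CPM (vertical axis, from 0, with its own scale in each panel) of the 10 genes in the 3 mice of each genotype and fraction, where circles are MHC I low and triangles MHC I high samples and bars are mean ± SD. Birc3 lay lower in both mutants than in WT cells in each fraction, Ripk1 and Ripk3 separated the fractions in opposite directions, and Mlkl never exceeded 0.576 CPM.

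Birc3, which encodes cIAP2 and is an established NF-κB target, was the 1 death complex gene called in all 4 comparisons of a mutant with WT, and it was lower in each. It lies at chr9:7847468-7873205. In MHC I low cells the WT mice had 93.5, 85.6 and 100.5 CPM, the Hoil ΔCd4 mice 74.4, 64.8 and 67.9 CPM, and the Sharpin cpdm mice 63.2, 60.3 and 58.9 CPM. Neither mutant overlapped WT, and every Sharpin cpdm sample lay below every Hoil ΔCd4 sample. In MHC I high cells the WT mice had 121.6, 117 and 122 CPM, the Hoil ΔCd4 mice 110.3, 93.0 and 100.4 CPM, and the Sharpin cpdm mice 98.6, 101 and 103 CPM. Again no mutant sample reached the WT range, but here both mutants overlapped.

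The log2 fold change of Birc3 in MHC I low cells was -0.44 ± 0.069 (SE) in Hoil ΔCd4 (limma adjusted p = 3.18e-04) and -0.62 ± 0.063 in Sharpin cpdm (adjusted p = 4.72e-08). In MHC I high cells it was -0.27 ± 0.062 in Hoil ΔCd4 (adjusted p = 0.006) and -0.26 ± 0.057 in Sharpin cpdm (adjusted p = 0.00286). Both mutants share the WT samples in these comparisons. Set against each other, the mutants differed by 0.18 (95% interval 0.04 to 0.33) in the low fraction, which did not pass (adjusted p = 0.108). The 2 calls in low cells held whichever mouse was left out. In high cells the Hoil ΔCd4 call was lost without Hoil ΔCd4 mouse 2 (log2 fold change -0.21, limma adjusted p = 0.159), without Hoil ΔCd4 mouse 3 (-0.26, adjusted p = 0.064), and likewise when WT mouse 1 (-0.27, adjusted p = 0.0733) or WT mouse 3 (-0.26, adjusted p = 0.139) was left out. The Sharpin cpdm call in high cells was lost without WT mouse 3 (-0.24, adjusted p = 0.107).

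Birc2, which encodes cIAP1, lies 10.3 kb from Birc3 (chr9:7818226-7837131) and was called in none of these 4 comparisons. Its means were 115 ± 1.49, 117 ± 9.83 and 110.1 ± 1.35 CPM (SD, n = 3) in WT, Hoil ΔCd4 and Sharpin cpdm low cells, and 155 ± 5.35, 144 ± 3.11 and 148 ± 7.37 CPM in high cells. Its difference in Hoil ΔCd4 high cells was -0.14 on the log2 scale (95% interval -0.25 to -0.02, limma adjusted p = 0.132). The ratio of Birc3 to Birc2 counts within a library, which no scaling between libraries enters and which was chosen after the values were seen, averaged 0.812 in WT low cells, 0.594 in Hoil ΔCd4 and 0.552 in Sharpin cpdm low cells. Its lowest WT low value, 0.743, was above the highest of either mutant, 0.645. In high cells the WT mice lay between 0.76 and 0.801, Hoil ΔCd4 between 0.659 and 0.75 and Sharpin cpdm between 0.666 and 0.705. The WT range was thus above that of either mutant there too, while the mutants overlapped. Transcripts of both genes share 40 stretches of 1 read length (75 bases), of 4573 in Birc2 and 5079 in Birc3.

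**Figure D2:**
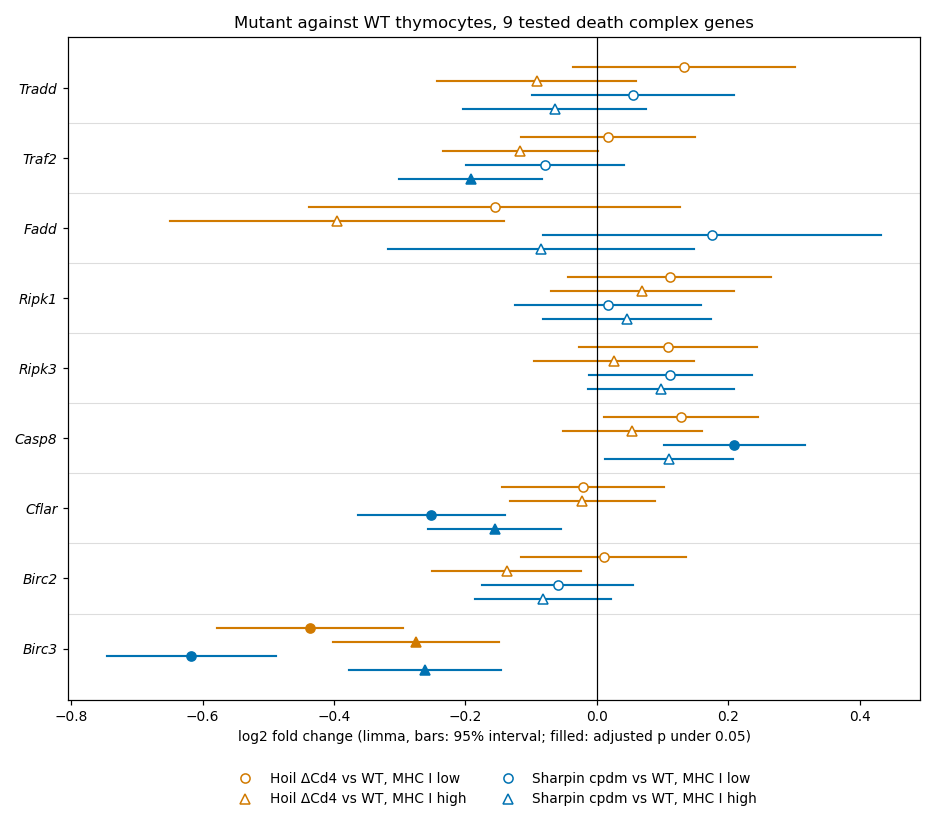
Log2 fold change against WT (horizontal axis) with its 95% interval for the 9 tested genes, orange for Hoil ΔCd4 and blue for Sharpin cpdm, circles for MHC I low and triangles for MHC I high, filled where the adjusted p was under 0.05. All 4 Birc3 symbols are filled and left of 0, from -0.62 to -0.26, whereas Cflar is filled only for Sharpin cpdm and Casp8 only for Sharpin cpdm MHC I low.

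By comparison, 1 of the 9 tested genes was called in Hoil ΔCd4 low cells, where 0.985% of all genes were called and 0.563% were lower. That background of 126 genes was 62 without WT mouse 1, 65 without Hoil ΔCd4 mouse 3, 222 without Hoil ΔCd4 mouse 1 and 209 with Xist as a covariate. In Hoil ΔCd4 high cells it was again 1 of 9, against 6.65% of all genes and 2.81% lower. In Sharpin cpdm low cells 3 of 9 were called, 1 higher and 2 lower, against 12.2% of all genes, 5.31% higher and 6.92% lower. In Sharpin cpdm high cells 3 of 9 were called, all lower, against 8.62% of all genes and 4.47% lower. The median log2 fold change of the 9 was 0.02, -0.09, 0.02 and -0.08 in these 4 comparisons, and that of all genes tested lay between -0.0014 and 0.0084. A list of 8 genes of mature single-positive thymocytes summed to between 2271 and 2287 CPM in Sharpin cpdm low cells and between 1883 and 1931 CPM in WT low cells. In high cells it summed to between 3916 and 4049 CPM in Hoil ΔCd4, 4432 and 4567 CPM in Sharpin cpdm and 4285 and 4459 CPM in WT samples. The part of such differences in maturity in the calls was not tested.

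Casp8 and Cflar, whose proteins form a heterodimer in the death complex, moved in opposite directions in Sharpin cpdm low cells. Cflar (chr1:58711311-58758884) encodes cFLIP, which limits caspase-8 activity. Its levels in low cells were 216, 204 and 199 CPM in WT mice, 214, 204 and 194 CPM in Hoil ΔCd4, and 186, 174 and 158 CPM in Sharpin cpdm mice. The Sharpin cpdm samples were all below both other genotypes, and WT and Hoil ΔCd4 overlapped. The log2 fold change in Sharpin cpdm was -0.25 ± 0.055 against WT (limma adjusted p = 0.00251), and it was -0.02 ± 0.060 in Hoil ΔCd4 (adjusted p = 0.944). Hoil ΔCd4 exceeded Sharpin cpdm low cells by 0.23 ± 0.062 (adjusted p = 0.0165), the 1 call among the 9 genes between the mutants in that fraction, where 9.48% of all genes were called and 5.12% were higher in Hoil ΔCd4. This call was lost without Hoil ΔCd4 mouse 1 (0.20, adjusted p = 0.098) or Sharpin cpdm mouse 3 (0.18, adjusted p = 0.0819).

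In high cells Cflar ran at 219, 209 and 213 CPM in WT mice, 221, 206 and 209 CPM in Hoil ΔCd4 mice, and 202, 190.2 and 186 CPM in Sharpin cpdm mice. The Sharpin cpdm samples were again the lowest. The log2 fold change against WT was -0.16 ± 0.050 (limma adjusted p = 0.0466), which is close to the threshold. It was lost in 10 of 17 alternative fits, among them edgeR (adjusted p = 0.187) and DESeq2 (adjusted p = 0.184), and without Sharpin cpdm mouse 2 (0.235) or 3 (0.19) or WT mouse 1 (0.227), 2 (0.0661) or 3 (0.331), in adjusted p. Between the mutants in high cells, none of the 9 genes was called by limma, edgeR or DESeq2, and 2 (Fadd and Cflar) had an unadjusted limma p under 0.05. Of all genes, 6.73% were called there.

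Casp8, the initiator caspase of this pathway (chr1:58795233-58847503), lies 36.3 kb from Cflar. In low cells it stood at 116, 119 and 116 CPM in WT mice, 134, 124 and 124 CPM in Hoil ΔCd4, and 127, 137 and 141 CPM in Sharpin cpdm mice. All 6 mutant samples were above the WT range, and both mutants overlapped. The log2 fold change was 0.21 ± 0.053 in Sharpin cpdm (limma adjusted p = 0.00799) and 0.13 ± 0.058 in Hoil ΔCd4 (adjusted p = 0.40). The Sharpin cpdm call was lost without Sharpin cpdm mouse 2 (0.20, adjusted p = 0.057) or mouse 3 (0.18, adjusted p = 0.0548). In high cells the differences were 0.11 (95% interval 0.01 to 0.21) in Sharpin cpdm and 0.05 (-0.05 to 0.16) in Hoil ΔCd4, and neither passed.

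The ratio of Casp8 to Cflar counts, likewise chosen after the values were seen, put both genes on 1 scale within each library. It averaged 0.566 ± 0.026 (SD, n = 3) in WT low cells, 0.623 ± 0.0146 in Hoil ΔCd4 and 0.788 ± 0.107 in Sharpin cpdm low cells. The ranges of the 3 genotypes were separate, at 0.536 to 0.582, 0.608 to 0.637 and 0.683 to 0.896. In high cells WT (0.649 to 0.693) and Hoil ΔCd4 (0.682 to 0.711) overlapped, and Sharpin cpdm lay above both at 0.719 to 0.843. As these genes are counted over different lengths, the ratio ranks samples and does not say which transcript is the more abundant.

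**Figure D3:**
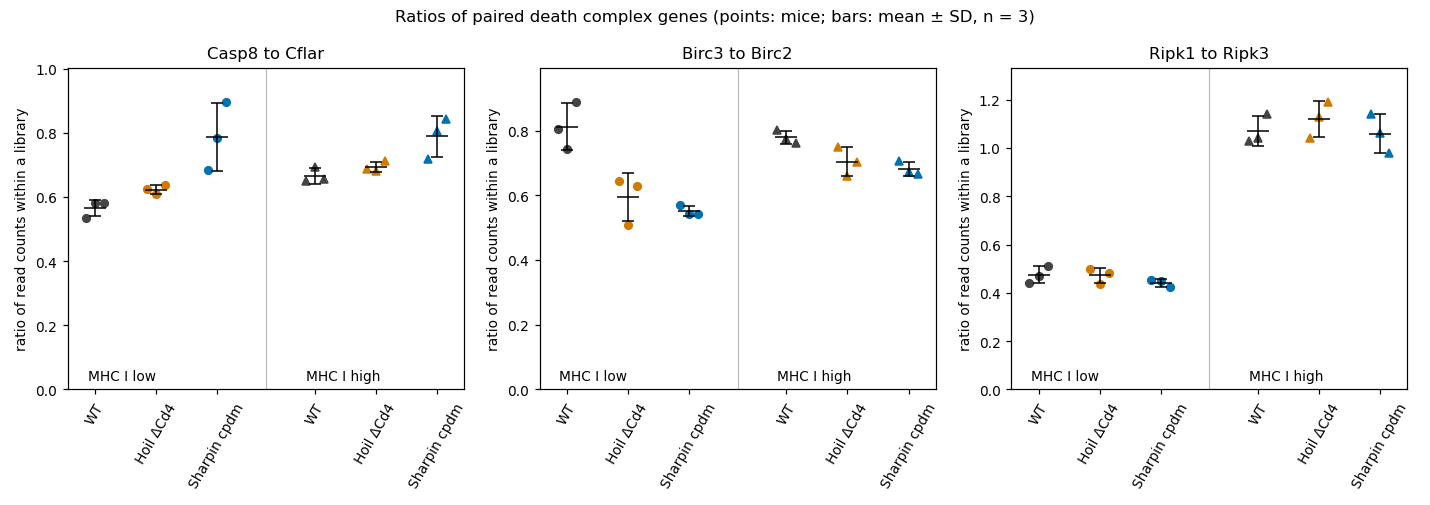
Ratio of read counts of 2 genes within each library (vertical axis, from 0) in the 3 mice of each genotype and fraction, with mean ± SD. Casp8 to Cflar was highest in Sharpin cpdm cells of both fractions, Birc3 to Birc2 was highest in WT cells of both fractions, and Ripk1 to Ripk3 separated the fractions in each genotype.

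Among the adaptors, Traf2, which recruits the cIAPs to the receptor complex (chr2:25517982-25546940), was lower in Sharpin cpdm high cells. Its levels there were 75.5, 76.4 and 70.1 CPM, against 82.8, 82.3 and 86.6 CPM in WT mice and 79.0, 79.0 and 77.6 CPM in Hoil ΔCd4 mice. The 3 genotypes did not overlap in high cells. The log2 fold change was -0.19 ± 0.053 in Sharpin cpdm (limma adjusted p = 0.0209) and -0.12 ± 0.058 in Hoil ΔCd4 (adjusted p = 0.237). The Sharpin cpdm call was lost in edgeR (adjusted p = 0.0844), in DESeq2 (adjusted p = 0.0661) and without sample quality weights (adjusted p = 0.103). It was also lost without Sharpin cpdm mouse 3 (adjusted p = 0.119) or WT mouse 1 (0.122), 2 (0.064) or 3 (0.403). In low cells the ranges of all genotypes overlapped and no difference passed.

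Fadd, the adaptor that binds caspase-8 (chr7:144578323-144582441), had few counts, between 102 and 225 per sample. In high cells the WT mice had 12.5, 12.1 and 15.5 CPM, the Hoil ΔCd4 mice 10.9, 11.6 and 9.79 CPM, and the Sharpin cpdm mice 12.2, 14.1 and 13.2 CPM. Every Hoil ΔCd4 sample was below both other genotypes. The log2 fold change of Hoil ΔCd4 against WT was -0.40 ± 0.124 and just missed the threshold (limma adjusted p = 0.0501), and without the replicate block of the 2 samples of a mouse it passed (-0.40, adjusted p = 0.0474). An antisense gene, Faddos, covers 239 of the 3903 exonic bases of Fadd in GENCODE, and the strand setting of the counting was not given in the sources used here. Tradd, the adaptor that binds the receptor's death domain (chr8:105258575-105264594), was called in no comparison between genotypes, and its means lay between 30.4 and 35.3 CPM in all 6 groups.

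Neither kinase was called between genotypes. In low cells Ripk1, the kinase at the branch between survival and death (chr13:34002225-34035170), averaged 39.9 ± 2.77 CPM in WT, 42.8 ± 3.25 CPM in Hoil ΔCd4 and 40.3 ± 1.73 CPM in Sharpin cpdm mice (SD, n = 3). Its log2 differences from WT over both mutants and fractions lay between 0.02 and 0.11, and the widest of their 95% intervals reached from -0.04 to 0.27. Ripk3, the necroptosis kinase (chr14:55784995-55788857), averaged 84.1 ± 1.97, 90.8 ± 5.87 and 91.2 ± 3.65 CPM in the same order. Its log2 differences from WT lay between 0.03 and 0.11, with a largest upper bound of 0.24. Of the exonic bases of Ripk1 in GENCODE, 752 of 8344 lie under exons of the pseudogene Gm17084 or of Serpinb6a on the opposite strand.

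Most calls among these genes were between fractions. In the WT genotype 7 of 9 were called between MHC I high and low, 6 higher and 1 lower, against 54.4% of all genes, 27.5% higher and 26.8% lower. In Hoil ΔCd4 cells it was 5 of 9, 4 higher and 1 lower, against 45.3% of all genes, 23.5% higher and 21.7% lower. In Sharpin cpdm cells it was 6 of 9, 5 higher and 1 lower, against 54.6%, 27.2% higher and 27.4% lower. The shares called are thus to be read against a background in which about as many genes changed as did not. The median log2 change of the 9 genes was 0.24 in WT samples, 0.05 in Hoil ΔCd4 and 0.15 in Sharpin cpdm cells, and that of all genes lay between -0.0042 and 0.00099. Summed mature thymocyte markers ran from 1789 to 2287 CPM in low and from 3916 to 4567 CPM in high samples. Most of this rise came from H2-K1, a gene of MHC I, on which the cells were sorted. It averaged 216 CPM in WT low and 2003 CPM in WT high cells.

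Ripk1 rose and Ripk3 fell from the low to the high fraction in all 3 genotypes. Ripk1 went from 36.9, 40.5 and 42.3 CPM to 58.0, 64.1 and 63.7 CPM in WT mice, from 46.6, 41.4 and 40.5 CPM to 62.3, 67.0 and 65.5 CPM in Hoil ΔCd4 mice, and from 42.2, 39.0 and 39.6 CPM to 66.8, 64.0 and 62.2 CPM in Sharpin cpdm mice. The fractions were separate in every genotype, with log2 changes of 0.65 ± 0.057, 0.61 ± 0.070 and 0.68 ± 0.060 (limma adjusted p = 3.29e-11, 1.51e-08 and 3.45e-11). Ripk3 went from 83.4, 86.3 and 82.5 CPM to 56.3, 61.9 and 55.7 CPM in WT mice, from 93.5, 94.8 and 84.1 CPM to 59.8, 59.2 and 55.2 CPM in Hoil ΔCd4 mice, and from 93.3, 87.0 and 93.4 CPM to 58.8, 60.3 and 63.5 CPM in Sharpin cpdm mice. These fractions did not overlap either, and the log2 changes were -0.56 ± 0.050, -0.64 ± 0.061 and -0.57 ± 0.052 (adjusted p = 4.15e-11, 2.82e-10 and 6.72e-11). The ratio of Ripk1 to Ripk3 counts went from between 0.423 and 0.513 in the 9 low samples to between 0.979 and 1.19 in the 9 high samples. Over the 18 samples the log2 CPM of both genes correlated with r = -0.930, a description in which the fractions supply most of the spread.

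Mlkl, the effector of necroptosis that RIPK3 phosphorylates (chr8:111311255-111338479), was barely detected. The 9 low samples held 7 reads in all and 5 of them none, and the 9 high samples held 39 reads, with none at 0. In WT mice the counts were 0, 0 and 1 in low and 3, 4 and 3 in high cells, in Hoil ΔCd4 mice 3, 0 and 0 and then 5, 2 and 6, and in Sharpin cpdm mice 2, 0 and 1 and then 4, 7 and 5. Its level was higher in the high fraction of all 9 mice (exact paired permutation test over the 9 mice, two-sided p = 0.00391, the smallest it can give). When the filter on low counts was dropped, the difference between fractions passed in WT (limma adjusted p = 0.0076), Hoil ΔCd4 (0.0144) and Sharpin cpdm cells (0.00389), and no difference between genotypes did. A count of 3 equals 0.188 CPM in the deepest and 0.288 CPM in the shallowest library. The Sharpin cpdm high samples (0.256 to 0.445 CPM) lay above the WT high samples (0.207 to 0.251 CPM), which is 4 to 7 against 3 or 4 reads (adjusted p = 0.641 without the filter).

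**Figure D4:**
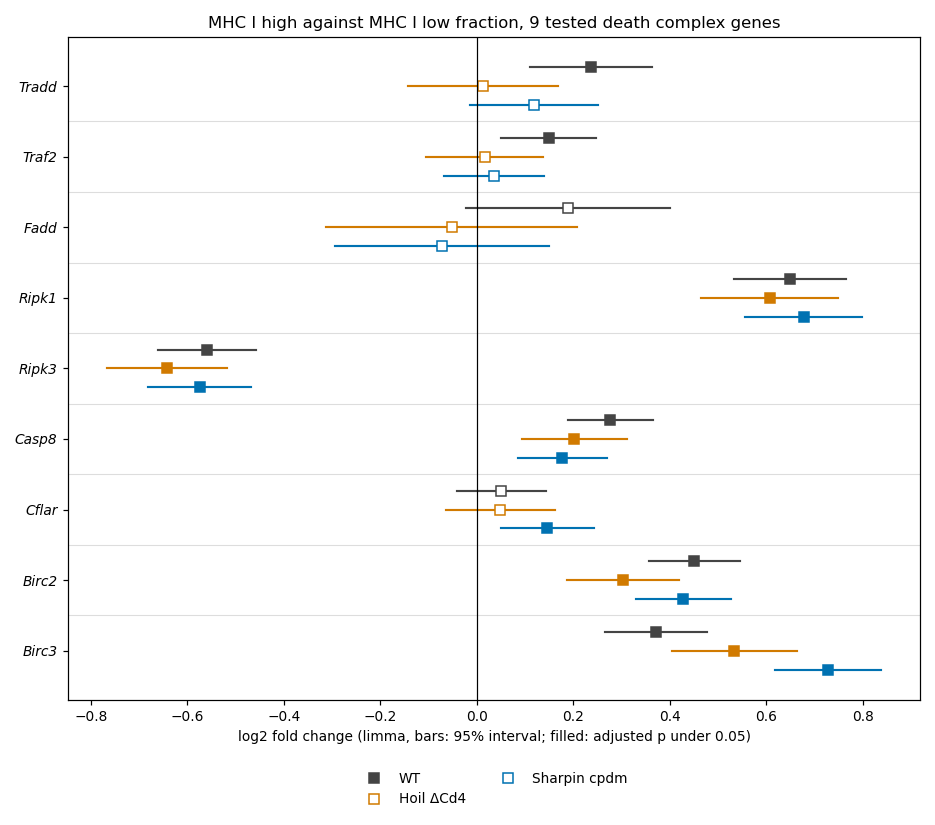
Log2 fold change of MHC I high against MHC I low cells (horizontal axis) with its 95% interval for the 9 tested genes in WT (grey), Hoil ΔCd4 (orange) and Sharpin cpdm cells (blue), filled where the adjusted p was under 0.05. Ripk1 lies between 0.61 and 0.68 and Ripk3 between -0.64 and -0.56 in the 3 genotypes, and Birc3 spreads from 0.37 in WT to 0.73 in Sharpin cpdm cells.

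Birc2, Birc3 and Casp8 were also higher in the high fraction of every genotype. Birc2 rose by 0.45 ± 0.046 on the log2 scale in WT samples, 0.30 ± 0.057 in Hoil ΔCd4 and 0.43 ± 0.048 in Sharpin cpdm cells (limma adjusted p = 9.48e-10, 5.14e-05 and 7.17e-09). Casp8 rose by 0.28 ± 0.043, 0.20 ± 0.053 and 0.18 ± 0.045 in the same order (adjusted p = 2.51e-06, 0.00227 and 0.00137). Birc3 rose by 0.37 ± 0.052, 0.53 ± 0.064 and 0.73 ± 0.054 (adjusted p = 3.53e-07, 2.82e-08 and 6.90e-13). Cflar was called in Sharpin cpdm cells (0.15 ± 0.047, adjusted p = 0.00961), with changes of 0.05 in both other genotypes. Tradd (0.24 ± 0.062, adjusted p = 0.0018) and Traf2 (0.15 ± 0.049, adjusted p = 0.0103) were called in WT cells. Both of these calls were lost without WT mouse 3 (0.16, adjusted p = 0.157 for Tradd and 0.099, adjusted p = 0.277 for Traf2). That of Traf2 was also lost in edgeR (adjusted p = 0.068) and DESeq2 (adjusted p = 0.0745). Neither paired the fractions of a mouse, but limma without the replicate block, which did not pair them either, kept the Traf2 call. Fadd was called in no genotype.

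The difference in these changes was tested directly. Birc3 rose more from low to high in Sharpin cpdm than in WT cells, by 0.36 ± 0.075 on the log2 scale (95% interval 0.20 to 0.51, limma adjusted p = 0.0071), the 1 call among the 9 genes, where 3.13% of all genes were called and 2.20% were higher. It was thus farther below WT in the low than in the high fraction. The call was lost in edgeR (0.36, adjusted p = 0.111) and DESeq2 (0.36, adjusted p = 0.0512). Neither paired the fractions of a mouse, but limma without the replicate block, which did not pair them either, kept the call. In limma it was lost without Sharpin cpdm mouse 2 (0.35, adjusted p = 0.0539) or 3 (0.32, adjusted p = 0.0744), and when WT mouse 3 was left out (0.31, adjusted p = 0.0946). For Hoil ΔCd4 the same difference in Birc3 was 0.16 (95% interval -0.0058 to 0.33, adjusted p = 0.494). None of the 9 genes was called there by limma, edgeR or DESeq2, against 0.398% of all genes, and 1 had an unadjusted limma p under 0.05 (Tradd, -0.22, adjusted p = 0.406).

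The gene whose log2 CPM over the 18 samples was most like that of each death complex gene was named without a test, as samples of 1 mouse are not independent and, for genes such as Ripk1, Ripk3 and Birc2, the fractions supply much of the spread. Birc3 was most like Gbp3 (Pearson r = 0.963), an interferon-inducible guanylate-binding protein gene. Ripk1 was most like Fam111a (0.980), Ripk3 like Csnk1e (0.985), which encodes casein kinase 1 epsilon, and Birc2 like Fibcd1 (0.977). Cflar was most like Zbtb44 (0.933) and Casp8 like Epsti1 (0.922). The closest genes of Tradd (Tmprss9, 0.841), Fadd (Nupl2, 0.841) and Traf2 (Kndc1, 0.817) were less alike.

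Of 45 further genes of the pathway (receptors and ligands, ubiquitin ligases and editors, kinases and other TRAFs, other caspases and cell death genes), all 45 were tested. In Hoil ΔCd4 cells 0 were higher and 4 lower in the low fraction, and 0 higher and 4 lower in the high fraction, the deleted gene Rbck1 among them each time. Over all genes 0.985% and 6.65% were called in these comparisons. In Sharpin cpdm cells 4 were higher and 7 lower in low, and 1 higher and 4 lower in high cells, Sharpin among the lower each time, against 12.2% and 8.62% of all genes. Tnfaip3, which encodes the ubiquitin-editing enzyme A20, was the 1 gene of the 45 lower in all 4 comparisons. It averaged 246.5 ± 23.1, 179.8 ± 12.7 and 166 ± 11.2 CPM in WT, Hoil ΔCd4 and Sharpin cpdm low cells, and 152 ± 6.63, 112 ± 4.79 and 122 ± 2.09 CPM in high cells. Its log2 fold changes against WT were -0.45 and -0.43 in Hoil ΔCd4 low and high cells (limma adjusted p = 1.74e-04 and 2.61e-05), and -0.56 and -0.31 in Sharpin cpdm (adjusted p = 1.67e-07 and 3.22e-04). Unlike Birc3, it was lower in the high than in the low fraction of each genotype by its means.

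Traf1, a TRAF that pairs with TRAF2 and the cIAPs, was lower in Sharpin cpdm low cells (-0.74, limma adjusted p = 8.53e-06) and Hoil ΔCd4 high cells (-0.31, adjusted p = 0.0425), with -0.38 (0.0805) and -0.26 (0.0586) in the other comparisons. Ltb, the lymphotoxin β gene, was lower in the low fraction of both mutants, at -0.34 in Hoil ΔCd4 cells (adjusted p = 0.00228) and -0.26 in Sharpin cpdm cells (adjusted p = 0.0028). Fas, a death receptor that recruits FADD directly, was lower in Sharpin cpdm low (-0.21, adjusted p = 0.0385) and high cells (-0.20, adjusted p = 0.0333). Tnip1, which encodes the A20-binding protein ABIN1, was higher in Sharpin cpdm low (0.33, adjusted p = 5.38e-05) and high cells (0.35, adjusted p = 7.84e-06), and its change was -0.16 and -0.02 in Hoil ΔCd4, which did not pass. The targeted genes Rbck1 and Sharpin are the others called more than once.

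Tnf itself was low, at 12.7 ± 0.584 CPM in WT, 8.89 ± 1.70 CPM in Hoil ΔCd4 and 12.6 ± 1.63 CPM in Sharpin cpdm low cells. It was lower in Hoil ΔCd4 low cells (-0.55, limma adjusted p = 0.0395) and not called in the other 3 comparisons with WT. It was also lower in Hoil ΔCd4 than in Sharpin cpdm cells, at -0.50 in the low (adjusted p = 0.0213) and -0.46 in the high fraction (adjusted p = 0.0222), and it was higher in the high than in the low fraction of each genotype (0.38, 0.72 and 0.68 in WT, Hoil ΔCd4 and Sharpin cpdm cells, adjusted p = 0.00241, 2.1e-05 and 3.59e-06). Tnfrsf1a, the gene of TNF receptor 1, was called in none of the 4 comparisons, with group means between 69.2 and 84.5 CPM. Tnfrsf1b, the gene of TNF receptor 2, was lower in Sharpin cpdm high cells (-0.23, adjusted p = 0.0377), at 163 to 181 CPM against 193 to 213 CPM in WT cells.

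Neighbouring genes were counted because the Sharpin cpdm and WT mice differ in strain. The share of all genes called against WT was 12.2% in Sharpin cpdm low and 8.62% in high cells, and 0.985% and 6.65% in Hoil ΔCd4. Within 1 Mb of Fadd, 6 of 14 tested genes (42.9%) were called in Sharpin cpdm low and 7 of 14 (50%) in high cells. In either Hoil ΔCd4 comparison 0 of 14 were called. Tnfrsf26 had 0 reads in the 3 Sharpin cpdm low samples and at most 2 in the high samples, against 32.3 to 37.3 CPM in WT low and 23.7 to 25.8 CPM in WT high samples, while Fadd itself was not called. Around Casp8 it was 7 of 21 (33.3%) in low and 3 of 21 (14.3%) in high cells, Cflar included, with Clk1 lower in both (-0.30, limma adjusted p = 9.36e-04 and -0.22, adjusted p = 0.00733). Around Birc3 it was 2 of 7 in each fraction, Yap1 and Cep126, and 0 of 7 in either Hoil ΔCd4 comparison. In Hoil ΔCd4 low and high cells the log2 changes of Yap1 were -0.84 and -0.80, and those of Cep126 were -1.955 and -1.05, none of them called. Both are low genes: Yap1 lay at 3.84 to 6.20 CPM in WT, 1.45 to 3.53 CPM in Hoil ΔCd4 and 0.743 to 1.00 CPM in Sharpin cpdm low cells. Cep126 had 23 to 27 reads in WT samples, 1 to 19 in Hoil ΔCd4 and 0 to 2 in Sharpin cpdm low samples. Around Traf2, 2 of 50 genes were called in low and 0 of 50 in high cells. The same counts were 5 and 4 of 57 around Tradd and 1 and 0 of 11 around Ripk1. They were 3 and 2 of 37 around Ripk3 and 3 and 2 of 26 around Mlkl. The part of strain differences in the Sharpin cpdm values was not tested.

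**Figure D5:**
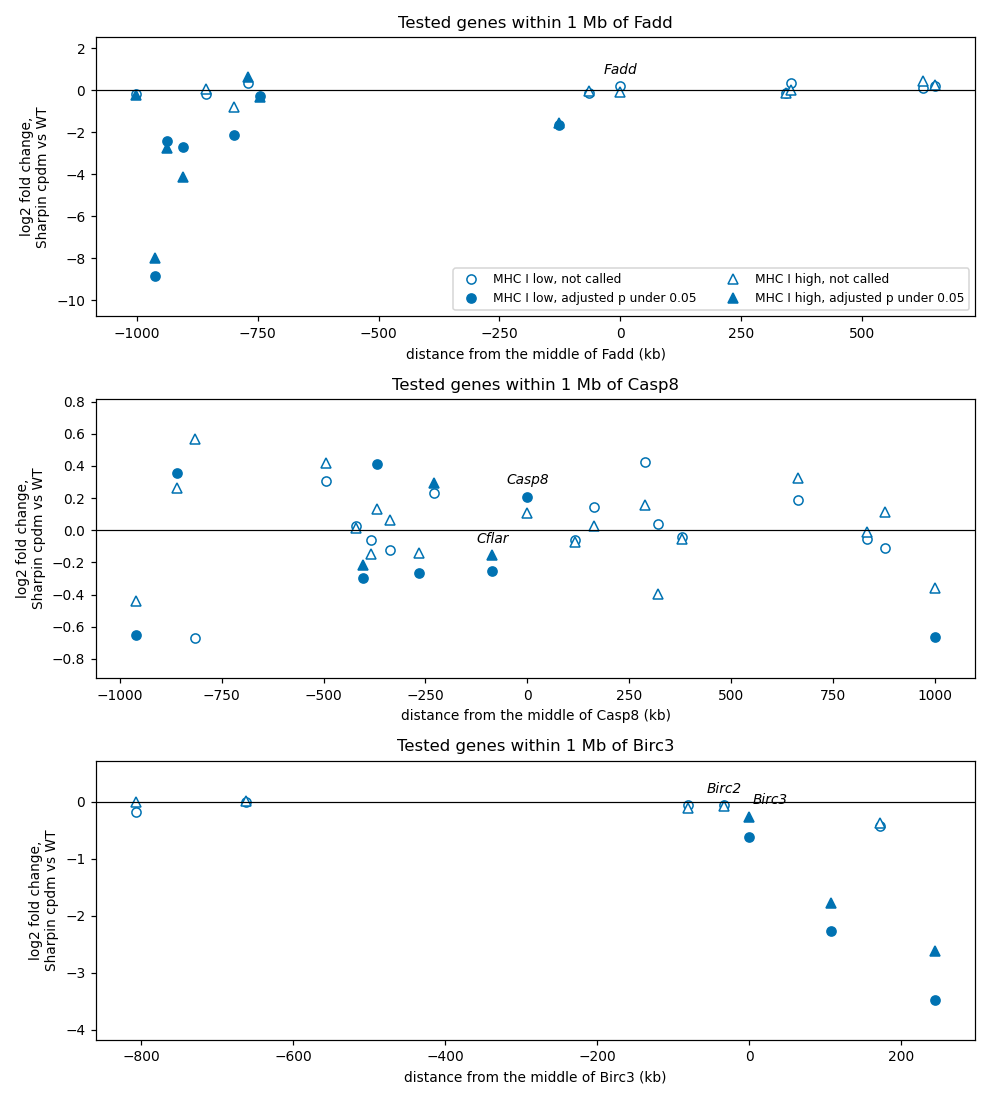
Log2 fold change of Sharpin cpdm against WT (vertical axis, each panel with its own scale) for the tested genes within 1 Mb of Fadd, Casp8 and Birc3, by distance from the middle of that gene in kb, circles for MHC I low and triangles for MHC I high, filled where the adjusted p was under 0.05. Near Fadd the 2 lowest symbols are Tnfrsf26, whose fitted values rest on the prior count of 1, and Fadd is open, near Casp8 filled symbols lie on both sides of 0, and near Birc3 they are Birc3, Yap1 and Cep126, all below 0.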

How the data were processed

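The authors aligned 75 base single-end reads to mm10 with subread and counted them per Entrez gene with featureCounts and its inbuilt annotation, and versions and strand setting were not given in the sources used here. The deposited counts are whole numbers per gene and sample, neither normalised nor pooled. Symbols and coordinates came from RefSeq (GRCm38.p6) by Gene ID for 25275 of 27179 genes. A gene was tested if 3 or more samples reached 0.5 CPM. Left out were the 1904 unmatched IDs, Xist, predicted genes and those on chromosome Y, and 12798 genes remained. Log2 CPM (TMM factors 0.9873 to 1.015, prior count 1) was fitted with limma 3.58.1 in R 4.3.3 over 6 groups, with sample quality weights (0.628 to 2.42), the mouse as a random replicate block (correlation 0.224) and robust, trended empirical Bayes moderation. The Benjamini-Hochberg adjustment ran over all genes tested, and an adjusted p under 0.05 was called. CPM are per TMM-scaled library. Both fractions came from the same mouse, so samples were paired, and deviations from the group means of the paired samples correlated at r = 0.0702 to 0.256. Alternatives on the counts were edgeR 4.0.16 (quasi-likelihood) and DESeq2 1.42.0. Both held only the 6 groups, without a mouse block or sample quality weights, so they did not pair the fractions of a mouse. The limma fit was also run with library size without TMM, no filter, no weights or no replicate block. Further alternatives were the mouse number as a fixed replicate block, Xist as a covariate and leaving out each mouse. The mouse number runs within each genotype, so its fixed block joins different animals and does not pair the fractions of a mouse. The fit was also run on simulated data, with known changes in Sharpin cpdm low samples and a spread that was chosen and not estimated here. That run checks the code and not the stability of the calls. Overlaps of transcripts were read from GENCODE vM21. The death complex genes, the pathway and marker lists and the tests were chosen with earlier results of these data known. Of pathway genes, those called in at least 2 of the 4 comparisons with WT, and Tnf, Tnfrsf1a, Tnfrsf1b and Tnfaip3, were named. Genes named among neighbours and the ratios of 2 genes were chosen after their values were seen.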

Additional observations from a re-analysis of the deposited data

Results flagged for a closer look

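Birc3 changed more between the MHC I low and high fractions in Sharpin cpdm than in WT mice, by 0.36 on the log2 scale (limma adjusted p = 0.0071), which was tested as the difference of both changes. In WT mice its mean went from 93.2 to 120.4 CPM and in Sharpin cpdm mice from 60.8 to 101 CPM. The summed mature thymocyte markers of the low fraction were 2271 to 2287 CPM in Sharpin cpdm and 1883 to 1931 CPM in WT samples, and their part in this difference was not tested.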

How the results depend on the processing

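Of the 28 differences called among the death complex genes, none reversed in any of 17 alternatives, 24 kept their call in all 8 alternatives that use every mouse, and 19 kept it in all 17. Of the 71 differences that were not called, 16 changed sign in at least 1 alternative and 1 was called in one of them. The number of death complex genes called moved as follows. For Sharpin cpdm against WT in high cells it was 1 in edgeR, in DESeq2 and without sample quality weights, where 3 were called in the reported fit. For the change between fractions in Sharpin cpdm against WT it was 0 in edgeR and DESeq2. These did not pair the fractions of a mouse, but limma without the replicate block, also unpaired, kept the Birc3 call. Without the replicate block the number was 2 for Hoil ΔCd4 against WT in high cells, as Fadd then passed (-0.40, limma adjusted p = 0.0474). It was also 2 for Sharpin cpdm against WT in high cells, as Cflar did not pass (-0.15, limma adjusted p = 0.0569). With the mouse number as a fixed replicate block, which joins animals of different genotypes and does not pair fractions, the counts were those reported. Leaving out 1 mouse at a time gave between 0 and 3 genes for Sharpin cpdm against WT in high cells, 2 and 3 in low cells, 0 and 1 for Hoil ΔCd4 against WT in high cells, for Hoil ΔCd4 against Sharpin cpdm in low cells and for the change between fractions in Sharpin cpdm, and 5 and 7 between fractions in WT. Over all genes, edgeR called 521, DESeq2 601 and limma without quality weights 431 for Sharpin cpdm against WT in high cells, where 1103 were called, and 404, 484 and 314 for Hoil ΔCd4 against WT, where 851 were called. Without WT mouse 3 these were 238 and 134. Leaving out 1 mouse at a time, all genes called against WT ranged from 62 to 222 in Hoil ΔCd4 low, 134 to 1219 in Hoil ΔCd4 high, 818 to 1555 in Sharpin cpdm low and 238 to 1142 in Sharpin cpdm high cells. For the change between fractions, edgeR called 30 and DESeq2 133 in Sharpin cpdm, where 400 were called, and 1 and 21 in Hoil ΔCd4, where 51 were called. Without the replicate block these were 124 and 6, and with the fixed block 190 and 8. The cause was not tested. Depth limits Mlkl (46 reads in 18 samples) and, less so, Fadd.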
